A study of Mus musculus with 18 samples.

Results

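The transcripts described here come from 32 genes of glycolysis and of the response to low oxygen, followed in mpkCCD cells with and without dDAVP. The genes were chosen by symbol from a list of glucose and lactate transporters, glycolytic enzymes, the oxygen-sensing machinery and known hypoxia targets. All 32 symbols were found among the 24111 gene rows of the deposited count table, each in a single row. Glycolysis splits glucose into pyruvate through a chain of cytosolic enzymes and yields ATP without oxygen, while lactate dehydrogenase returns the NAD+ that the chain needs. Hypoxia-inducible factors (HIF) raise many of these same enzymes, because prolyl hydroxylases that use oxygen mark the HIF alpha subunit for destruction and lose activity when oxygen falls. The renal medulla, through which collecting ducts run, works at low oxygen tension and draws much of its energy from glycolysis.

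mpkCCD cells are an immortalised mouse line with features of collecting duct principal cells, the cells in which vasopressin controls water reabsorption. Per the labels, cells of the mpkCCD11 clone were grown to a tight monolayer on permeable supports and kept 24 h without serum. The 9 dDAVP libraries then came from cells that spent 24 h with dDAVP at 0.1 nM, a synthetic vasopressin (desmopressin) that acts on the V2 receptor, and the 9 control libraries from cells in the same medium with no treatment. The growth medium of all cells held dexamethasone, insulin, triiodothyronine, epidermal growth factor, selenium and transferrin. Libraries are numbered 1 to 9 in each group, and the labels give no meaning to equal numbers and do not say that replicates were separate cultures. The p-values below therefore measure the spread between these libraries, which may be technical.

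The libraries held 22.2 to 105.9 M counted reads and fell into 3 sets by number, namely 1 to 3, 4 to 6 and 7 to 9. Of all counts, the 32 genes took 0.222 to 1.16% in numbers 4 to 6, against 0.903 to 2.88% in numbers 7 to 9 and 3.62 to 4.70% in numbers 1 to 3. Ribosomal protein genes moved the same way: their share was 0.862 to 10.2% for numbers 4 to 6, 10.3 to 16.1% for 7 to 9 and 20.8 to 28.8% for 1 to 3. Ribosomal RNA counted as Rn45s made up 0.213 to 3.04% in the set 7 to 9 and at most 0.00682% in any other library. The library that differed most was dDAVP 6, which had the lowest share of the 32 genes, the lowest share of ribosomal protein genes and the lowest TMM scaling factor (0.306, against up to 3.17 in dDAVP 8). The sets are no batch that the labels state, and the part of RNA quality or preparation in their differences was not tested. All 5 epithelial markers (Epcam, Cdh1, Krt8, Krt18 and Krt19) were present, with sums of 1981 to 19540 normalised CPM (counts scaled by TMM library sizes) with dDAVP and 1515 to 17000 in control, whereas the 4 red blood cell markers were at 0 in every library. Other lists were not at 0 throughout. Leukocyte markers summed to at most 13.8 normalised CPM with dDAVP and 8.265 in control. Proximal tubule markers reached 10.9 and 8.225, and intercalated cell markers 22.9 and 14.4, in the same order. Of the 12 principal cell markers, Elf5 was at 0 in every dDAVP library and in control 4 to 9. Aqp4 was at 0 in dDAVP 4 to 9 and in control 1 to 3 and 7 to 9. Aqp2 is the water channel that vasopressin induces. Its log2 fold change for dDAVP over control was 4.63 with the set of libraries as a term (edgeR adjusted p = 0.00504). The Aqp2 groups did not overlap in libraries 1 to 3 (1050 to 2637 normalised CPM with dDAVP, 20.47 to 27.93 in control). The same held in libraries 4 to 6 (162.1 to 1099 against 27.36 to 48.21). In libraries 7 to 9 they overlapped, at 174.6 to 2764 with dDAVP (median 192.6) against 10.86 to 252.1 in control. The dDAVP median of that set thus lay below its highest control library.

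Promoters of the 32 genes were searched for the letters at the core of the hypoxia response element, to which HIF binds, namely ACGTG or GCGTG on either strand. RefSeq sequences of build GRCm38.p6 matched 30 of the 32 symbols, and the search covered the 250 bases before each annotated start, keeping the start with most matches for each gene. A match was present in 28 of these 30 genes (93.3%), against 41.5% of all 27025 genes with a promoter in the same collection. At least 2 matches were present in 21 (70%) of the 30, against 18.7% of all. A palindromic CACGTG counts as 2 matches, since both strands are read, and the list itself holds genes picked as known HIF targets. The collection of all genes was not matched to the members for expression or base content. The sequences below are the bases just upstream of the start of 5 genes, in lower case with the searched letters in capitals. Hk2 and Pfkp are shown for their unadjusted p with the set term, Gapdh and Ldha for their abundance, and Bnip3 because it shares with Ldha the highest number of matches in the full window, 5. The choice favours genes with matches: Tpi1 and Gpi1 had 0 in the full window, Aldoa 1 and Pgk1 2. Bases that GENCODE places in an exon are left out. Hk2 lies at chr6:82774455-82774574 on the minus strand, Pfkp at chr13:6648778-6648891 on the minus strand and Gapdh at chr6:125165774-125165893 on the minus strand. Ldha lies at chr7:46845684-46845803 on the plus strand and Bnip3 at chr7:138909520-138909626 on the minus strand.
Hk2: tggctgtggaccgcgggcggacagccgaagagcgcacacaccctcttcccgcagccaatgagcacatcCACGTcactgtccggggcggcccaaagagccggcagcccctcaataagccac
Pfkp: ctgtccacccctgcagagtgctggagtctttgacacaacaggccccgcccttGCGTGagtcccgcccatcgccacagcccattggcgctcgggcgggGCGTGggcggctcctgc
Gapdh: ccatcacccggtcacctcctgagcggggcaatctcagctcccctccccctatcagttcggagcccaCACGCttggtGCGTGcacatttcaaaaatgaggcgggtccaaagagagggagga
Ldha: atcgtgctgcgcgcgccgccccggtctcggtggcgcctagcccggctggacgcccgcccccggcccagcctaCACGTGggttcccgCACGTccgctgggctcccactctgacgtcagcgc
Bnip3: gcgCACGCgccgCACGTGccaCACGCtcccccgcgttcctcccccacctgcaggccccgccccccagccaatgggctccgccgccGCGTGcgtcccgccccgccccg
The Bnip3 stretch holds 5 matches, the Ldha stretch 3, those of Pfkp and Gapdh 2 each and that of Hk2 1. These are matches of letters in a window, and binding was not measured. In the same build, by GENCODE M21, the genes themselves span chr6:82725025-82774454 (Hk2), chr13:6579768-6648777 (Pfkp), chr6:125161715-125166467 (Gapdh) and chr7:46841475-46855627 (Ldha).

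The enzymes of the middle and end of the pathway were by far the most abundant members. On the deposited FPKM scale, which divides counts by gene length and library total, Gapdh averaged 6398 FPKM over the 18 libraries, Aldoa 3336, Ldha 1926 and Tpi1 1686. These encode the glyceraldehyde phosphate dehydrogenase, the main aldolase, the A subunit of lactate dehydrogenase and triosephosphate isomerase. Next came the pyruvate kinase Pkm with 523 FPKM, the phosphoglycerate kinase Pgk1 with 319, the mutase Pgam1 with 230, the glucose phosphate isomerase Gpi1 with 170, the liver-type phosphofructokinase Pfkl with 128.5 and the hypoxia target Ndrg1 with 118. The order differed between sets. In libraries 4 to 6 Aldoa averaged 4012 FPKM, above Gapdh with 796, Tpi1 with 190 and Ldha with 152. Libraries 7 to 9 had means of 5050 FPKM for Gapdh, 2413 for Aldoa, 1298 for Tpi1 and 1050 for Ldha, and libraries 1 to 3 means of 13350 for Gapdh, 4577 for Ldha, 3584 for Aldoa and 3570 for Tpi1. Pfkl passed 100 FPKM through libraries 7 to 9 alone, with 322 FPKM there, 22.6 in libraries 4 to 6 and 41.0 in libraries 1 to 3. Over all libraries 10 members reached a mean of 100 FPKM and 19 a mean of 10 FPKM. The prolyl hydroxylases Egln3 and Egln1 averaged 21.6 and 14.9 FPKM, and Hif1a, which encodes the oxygen-regulated alpha subunit of HIF, 13.8 FPKM. Of the 9 genes listed only as hypoxia targets, Bnip3l averaged 63.1 FPKM, and those other than Ndrg1 and Bnip3l were under 10 FPKM. At the low end were Adm, the vasodilator adrenomedullin, with 0.834 FPKM, the vascular growth factor Vegfa with 0.458 FPKM and the lactate exporter Slc16a3 with 0.0785 FPKM, the 3 members under 1 FPKM.

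The levels ranged widely between libraries. Gapdh lay between 371 and 15540 FPKM, Ldha between 80.1 and 5423 FPKM and Aldoa between 549 and 5212 FPKM over all 18, so the ranges of neighbours in this order overlap throughout. Eno1, an enolase, appeared low at 6.61 FPKM. Its near-identical copy Eno1b carried 42.8 to 1253 normalised CPM with dDAVP and 55.2 to 1360 normalised CPM in control, against at most 24.4 normalised CPM for Eno1, so how the reads of enolase were split between the 2 rows is uncertain. The strand setting of the counting is not given in the sources used here, and 8 members overlap another counted gene. Over all libraries Ankrd37 had 7242 counts beside 7402 for Ufsp2, Pfkm 12021 beside 11404 for Senp1 and Pfkp 116176 beside 48071 for Pitrm1, each neighbour lying on the opposite strand.

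**Figure D1:**
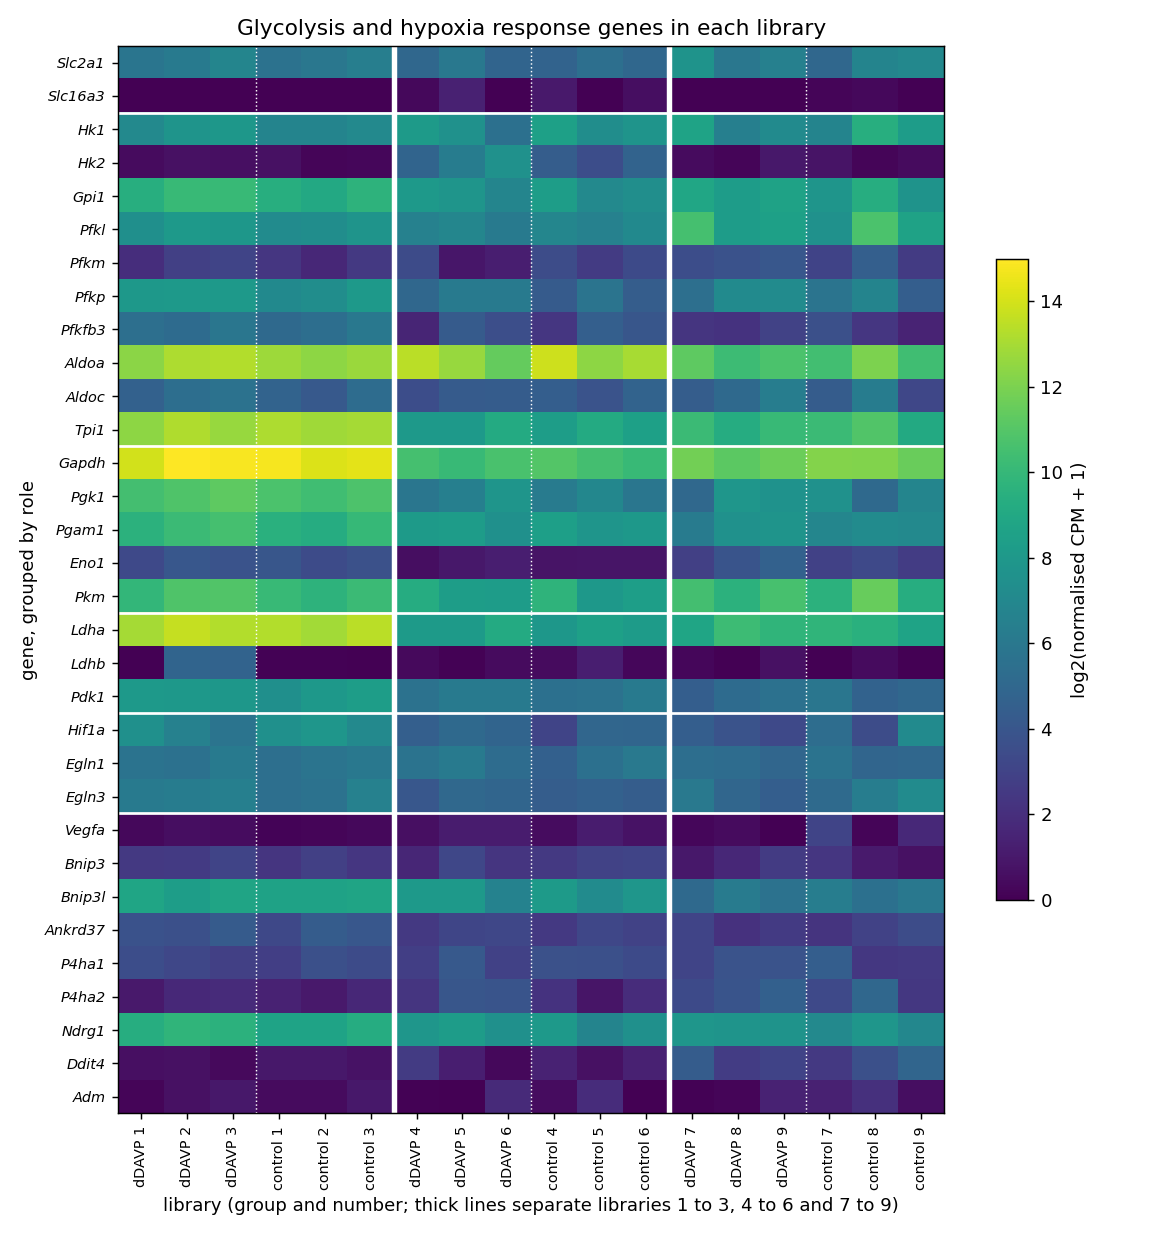
log2(normalised CPM + 1) of the 32 genes (rows, grouped by role between the white lines) in each library (columns, dDAVP left of control within libraries 1 to 3, 4 to 6 and 7 to 9). Colours should be read along a row, since the scale is not per length; Gapdh, Tpi1, Pgk1 and Ldha are brightest in libraries 1 to 3, Hk2 is bright only in libraries 4 to 6 and Ldhb only in dDAVP 2 and 3.

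The comparison of dDAVP with control asks whether activation of the V2 receptor was followed by a different level of these transcripts. No member passed the test. In the fit of all 18 libraries edgeR called 0 of the 30 members that passed its filter on low counts, and none had an unadjusted p under 0.05. Over all 10121 genes tested, 0% were called and 2.15% had an unadjusted p under 0.05. DESeq2, limma voom with sample quality weights and limma on FPKM also called 0 members. The fitted log2 fold changes of the members were positive for 16 and negative for 14, with a median of 0.02 against 0.05 over all genes. Scaling by library totals alone moved the median over all genes to 0.24 and that of the members to 0.21, with 21 of 30 positive. Directions in the later sets turned on the same choice: positive members numbered 15 of 30 in libraries 4 to 6 and 15 of 31 in libraries 7 to 9 by TMM, but 6 and 26 by library totals, where the median gene stood at -0.38 and 0.54. By library totals 19 of 30 were positive with the set term (16 by TMM) and 20 of 27 in libraries 1 to 3 (17 by TMM). Slc16a3 and Ldhb did not pass the filter. As in any bulk measurement, fewer cells of a type and less RNA per cell cannot be told apart.

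With the set of libraries as a term, edgeR again called 0 of 30 members, against 0.079% of all genes, and the lowest adjusted p of a member was 0.815. Hk2 and Pfkp had an unadjusted p under 0.05, which is 6.67% of the members against 6.03% of all genes. The median member stood at 0.00 on the log2 scale and the median gene at 0.02. For the abundant enzymes this fit left moderate changes in either direction possible: the 95% interval of the dDAVP over control ratio ran from 0.618 to 1.36 for Gapdh, from 0.563 to 1.304 for Tpi1, from 0.545 to 1.44 for Aldoa, from 0.797 to 1.79 for Ldha and from 0.783 to 2.30 for Pgk1.

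Within the sets no member was called either. In libraries 1 to 3 edgeR tested 27 members, called 0 and found 2 with an unadjusted p under 0.05 (Hk1 and Ndrg1), where 0.456% of 8991 genes were called and 10.5% had such a p. In libraries 4 to 6 it tested 30 members, called 0 and found 2 with an unadjusted p under 0.05 (Hk2 and P4ha2), where 0% of 10387 genes were called and 4.61% had such a p. For libraries 7 to 9 it tested 31 members, called 0 and found 2 with an unadjusted p under 0.05 (Hif1a and Vegfa), where 0% of 11367 genes were called and 5.19% had such a p. The names differ from set to set. A test of whether the dDAVP effect differed between the sets called 0 of 30 members and 0% of genes, and 1 member (Vegfa) had an unadjusted p under 0.05, beside 6.63% of genes. The absence of calls in libraries 1 to 3 depends on the libraries and the method. Without dDAVP 1 edgeR called Hk1, Pkm, Hif1a and Ldhb. Without a filter it called Ldhb, and limma voom with sample quality weights called Hk1, Hif1a and Ndrg1. The shares of all genes called in these alternatives are not given here, so the calls have no background beside them. Leaving out dDAVP 1 keeps only dDAVP 2 and 3, which also carried Umod, described further on (566 and 483 counts, against 1 in dDAVP 1). Its part in these calls was not tested.

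Of 27 members tested in each set, with TMM scaling, 6 had a positive fitted change in all of them (Slc2a1, Pfkp, Pgk1, Ldha, P4ha2 and Ndrg1) and 4 a negative one (Pfkfb3, Tpi1, Bnip3l and Ankrd37). These signs are a description, since none of the changes was called. The share of all genes with the same sign in every set was not computed, and directions in the later sets turned on the scaling.

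**Figure D2:**
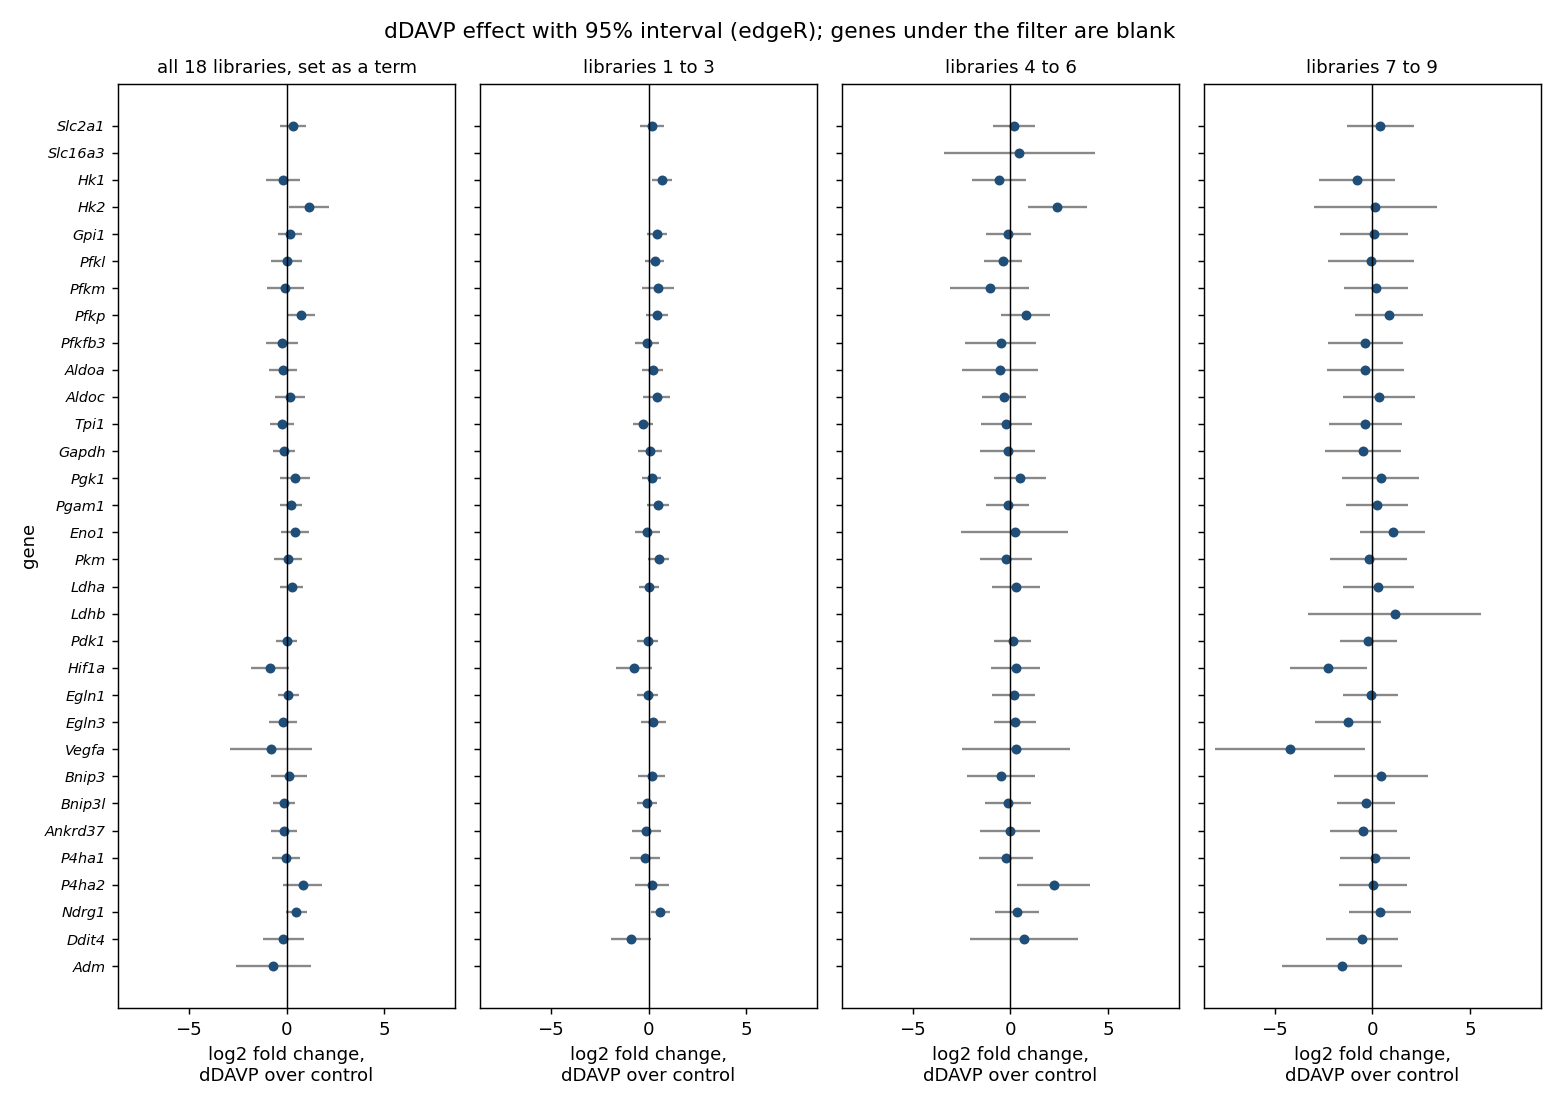
Fitted log2 fold change, dDAVP over control (points), with its 95% interval (lines) for each member in 4 edgeR fits: all 18 libraries with the set as a term, and libraries 1 to 3, 4 to 6 and 7 to 9 alone. Among the 3 fits of a single set, the interval of each of the 27 members tested in all is narrowest in libraries 1 to 3, and blank rows are members under the filter.

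Glucose enters these cells through facilitative transporters, of which Slc2a1 (GLUT1) was the member measured at a workable level. In libraries 1 to 3 Slc2a1 had 56.6, 69.7 and 110 normalised CPM with dDAVP, against 49.2, 61.0 and 85.7 in control. In libraries 4 to 6 it had 31.2, 62.5 and 27.8 with dDAVP, against 25.8, 43.0 and 30.5 in control. In libraries 7 to 9 it had 209, 59.6 and 91.3 with dDAVP, against 30.9, 109 and 125 in control. The groups overlap in every set, and the log2 fold change with the set term was 0.34 (SE 0.32, edgeR adjusted p = 0.923). Slc16a3, which exports lactate in highly glycolytic cells, was at 0 in all of libraries 1 to 3 and reached at most 1.62 normalised CPM with dDAVP and 0.995 in control.

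Hexokinase traps glucose in the cell as glucose phosphate, and the list holds 2 forms of it. Hk1, the housekeeping form, was present in all libraries, with 45.0 to 407 normalised CPM with dDAVP and 106 to 674 in control. In libraries 1 to 3 Hk1 had 133.4, 219 and 246 with dDAVP, against 106, 109 and 133.7 in control, so the groups just overlap, and the log2 fold change was 0.69 (SE 0.24, unadjusted p = 0.0136, edgeR adjusted p = 0.360). Without dDAVP 1 it was 0.88 (edgeR adjusted p = 0.0312), and by limma voom with sample quality weights 0.77 (adjusted p = 0.0280). Hk2, the form that hypoxia and growth signals induce in many cells, was near 0 outside libraries 4 to 6. There it had 27.0, 78.7 and 193 normalised CPM in dDAVP 4, 5 and 6, against 20.2, 10.5 and 26.5 in control 4, 5 and 6. All 3 dDAVP values lie above the control values on this scale, but by little for dDAVP 4. Scaled by library totals alone the groups overlap, with 17.7, 77.2 and 59.1 CPM with dDAVP and 11.0, 12.8 and 24.5 CPM in control. The log2 fold change in libraries 4 to 6 was 2.403 (SE 0.69, unadjusted p = 0.00446, edgeR adjusted p = 0.999), or 1.40 without dDAVP 6. With the set term over all libraries it was 1.15 (SE 0.50, unadjusted p = 0.0305, edgeR adjusted p = 0.815), 0.78 without dDAVP 6 and 0.43 without libraries 4 to 6. In libraries 1 to 3 Hk2 had 0.366, 0.605 and 0.507 normalised CPM with dDAVP, against 0.611, 0.158 and 0.180 in control, which is 3 to 10 counts a library. The libraries 7 to 9 gave 0.334, 0.157 and 0.964 with dDAVP, against 0.719, 0.162 and 0.338 in control.

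Phosphofructokinase catalyses the committed step of glycolysis and is built from liver (Pfkl), muscle (Pfkm) and platelet (Pfkp) subunits. Pfkp had 250, 271 and 261 normalised CPM in dDAVP 1 to 3, against 138, 159 and 269 in control 1 to 3. The libraries 4 to 6 gave 31.0, 67.5 and 72.0 with dDAVP, against 19.1, 52.6 and 20.8 in control. For numbers 7 to 9 it had 44.1, 141 and 149 with dDAVP, against 54.2, 108 and 21.5 in control. The dDAVP median was above the control median in each set while the ranges overlap in each, and the log2 fold change with the set term was 0.74 (SE 0.34, unadjusted p = 0.0407, edgeR adjusted p = 0.815). Pfkl showed no such lean, with a log2 fold change of 0.00 (SE 0.39), and stood out instead in dDAVP 7 and control 8, with 1542 and 1725 normalised CPM where no other library exceeded 391. Pfkm ranged from 0.890 to 15.7 normalised CPM with dDAVP and from 2.21 to 22.0 in control. Pfkfb3, which makes the main activator of phosphofructokinase and is a HIF target, had 1.90 to 57.5 normalised CPM with dDAVP and 1.78 to 63.8 in control, with a log2 fold change of -0.23 (SE 0.40, edgeR adjusted p = 0.964).

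Aldolase cleaves fructose bisphosphate, and triosephosphate isomerase converts its triose phosphate products into each other. Aldoa had 5258, 9102 and 9622 normalised CPM in dDAVP 1 to 3, against 7140, 5531 and 6872 in control 1 to 3. For numbers 4 to 6 it had 10870, 6550 and 2726 with dDAVP, against 14490, 5519 and 8160 in control. It reached, in libraries 7 to 9, 2413, 1249 and 1705 with dDAVP, against 1396, 4095 and 1314 in control. The groups overlap in every set, and the log2 fold change with the set term was -0.18 (SE 0.34, edgeR adjusted p = 0.967). Tpi1 ranged from 273 to 9260 normalised CPM with dDAVP, with a median of 1109, and from 325 to 8882 in control, with a median of 1167. Its log2 fold change was -0.22 (SE 0.29, edgeR adjusted p = 0.951). Gpi1 and Aldoc, the aldolase form best known from brain, had log2 fold changes of 0.18 each (SE 0.30 and 0.38).

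In lower glycolysis Gapdh, the enzyme that oxidises glyceraldehyde phosphate, ranged from 1096 to 32370 normalised CPM with dDAVP, with a median of 3108, and from 1087 to 28510 in control, with a median of 4549. Nearly the same range was covered in both groups, and the log2 fold change with the set term was -0.13 (SE 0.27, edgeR adjusted p = 0.973). Pgk1, which makes the first ATP of the pathway's payoff phase, ranged from 32.8 to 2449 normalised CPM with dDAVP, with a median of 226, and from 33.6 to 1812 in control, with a median of 122. Its log2 fold change was 0.42 (SE 0.38, edgeR adjusted p = 0.909). Pgam1, Eno1 and Pkm, the last enzymes before pyruvate, had log2 fold changes of 0.25 (SE 0.27), 0.45 (SE 0.35) and 0.07 (SE 0.35), none called. Within libraries 1 to 3 Pkm had 982, 1838 and 1920 normalised CPM with dDAVP, against 1108, 836 and 1183 in control. There dDAVP 1 lies among the controls, and the log2 fold change was 0.51 (SE 0.25, edgeR adjusted p = 0.491), or 0.73 without dDAVP 1 (edgeR adjusted p = 0.0444).

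At the branch of pyruvate, Ldha turns it into lactate while Pdk1, a HIF target, keeps it out of mitochondria by inhibiting pyruvate dehydrogenase. Ldha ranged from 290.0 to 13180 normalised CPM with dDAVP, with a median of 887, and from 241 to 11130 in control, with a median of 741. The ranges overlap nearly completely, and the log2 fold change with the set term was 0.26 (SE 0.28, edgeR adjusted p = 0.940). Pdk1 ranged from 21.0 to 269 normalised CPM with dDAVP and from 25.5 to 320 in control, with a log2 fold change of 0.01 (SE 0.26, edgeR adjusted p = 0.997). Ldhb, the subunit that favours lactate use, did not pass the filter and is described further on.

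Among the oxygen-sensing genes Egln3, a prolyl hydroxylase that is itself induced by HIF, had 70.1, 78.7 and 86.8 normalised CPM in dDAVP 1 to 3, against 44.3, 49.7 and 96.2 in control 1 to 3. It reached, in libraries 4 to 6, 15.9, 32.9 and 28.3 with dDAVP, against 20.1, 23.7 and 20.0 in control. The libraries 7 to 9 gave 65.4, 29.8 and 21.2 with dDAVP, against 35.6, 82.1 and 150 in control. The groups overlap in each set, and the log2 fold change with the set term of -0.20 (SE 0.35, edgeR adjusted p = 0.966) turned to 0.021 without control 9. Egln1, the hydroxylase that sets HIF stability in most cells, was the steadiest of this group, with 30.3 to 69.7 normalised CPM with dDAVP and 23.3 to 65.3 in control. Its log2 fold change was 0.08 (SE 0.26, edgeR adjusted p = 0.981).

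Hif1a itself had 180, 93.8 and 54.1 normalised CPM in dDAVP 1 to 3, against 183, 229 and 134 in control 1 to 3. The libraries 4 to 6 gave 21.9, 34.3 and 27.4 with dDAVP, against 7.30, 29.5 and 28.9 in control. For numbers 7 to 9 it had 20.9, 13.0 and 8.80 with dDAVP, against 39.6, 10.4 and 143 in control. The ranges overlap in each set. The log2 fold change was -0.75 (SE 0.42, edgeR adjusted p = 0.540) in libraries 1 to 3 and -2.25 (SE 0.92, unadjusted p = 0.0285, edgeR adjusted p = 0.938) in libraries 7 to 9. The value for libraries 7 to 9 rests largely on control 9, since it was -0.85 without it. Hif1a in libraries 1 to 3 reached -1.44 without dDAVP 1 (edgeR adjusted p = 0.0308) and -1.03 by limma voom with sample quality weights (adjusted p = 0.0410). With the set term it was -0.85 (SE 0.47, edgeR adjusted p = 0.856).

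The hypoxia targets differ in job. Ndrg1, a stress-responsive gene strongly induced by hypoxia in many cells, had 640, 901 and 792 normalised CPM in dDAVP 1 to 3, against 416, 420 and 624 in control 1 to 3. For numbers 4 to 6 it had 230, 306 and 182 with dDAVP, against 270, 108 and 181 in control. It reached, in libraries 7 to 9, 231, 218 and 206 with dDAVP, against 130, 238 and 123 in control. The groups do not overlap in libraries 1 to 3, where the log2 fold change was 0.61 (SE 0.23, unadjusted p = 0.0203, edgeR adjusted p = 0.393), and overlap in the other sets. By limma voom with sample quality weights Ndrg1 was called in libraries 1 to 3, at 0.71 (adjusted p = 0.0420). With the set term it was 0.48 (SE 0.26, edgeR adjusted p = 0.856). P4ha2, a catalytic subunit of collagen prolyl hydroxylase, had 3.98, 14.8 and 13.9 normalised CPM in dDAVP 4 to 6, against 3.58, 0.774 and 2.78 in control 4 to 6. These groups do not overlap, by a small margin, and the log2 fold change was 2.21 (SE 0.85, unadjusted p = 0.0236, edgeR adjusted p = 0.999).

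In libraries 7 to 9 P4ha2 had 9.34, 14.0 and 23.0 normalised CPM with dDAVP, against 8.94, 31.6 and 4.40 in control, so the separation of libraries 4 to 6 was not seen there. Its sister P4ha1 showed a log2 fold change of -0.03 (SE 0.35) with the set term. Bnip3 and Bnip3l, receptors that mark mitochondria for removal in hypoxia, had log2 fold changes of 0.13 (SE 0.44) and -0.13 (SE 0.27). Ankrd37, a small HIF target, stood at -0.13 (SE 0.31), and Ddit4, an inhibitor of mTOR signalling, at -0.17 (SE 0.51). Vegfa and Adm were scarce. Vegfa had 0.196, 0.334 and 0 normalised CPM in dDAVP 7 to 9, against 7.29, 0.152 and 2.26 in control 7 to 9. Control 8 lies within the dDAVP range, and the fitted log2 fold change of -4.22 (SE 1.78, edgeR adjusted p = 0.938) became -2.59 without control 7. In libraries 1 to 6 Vegfa stayed at or under 1.21 normalised CPM with dDAVP and 1.19 in control.

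The largest differences of these transcripts lay between the sets of libraries, not between dDAVP and control. Ldha, Pgk1, Tpi1 and Gapdh were lower in libraries 4 to 6 than in libraries 1 to 3 by 4.87 (SE 0.41), 4.10 (SE 0.52), 4.25 (SE 0.41) and 4.05 (SE 0.38) on the log2 scale, with edgeR adjusted p of 2.615e-09, 7.875e-07, 1.492e-08 and 9.998e-09. Aldoa, which works 1 step upstream of Tpi1, was not, with a log2 difference of 0.13 (SE 0.41, edgeR adjusted p = 0.811). Hk2 moved the other way, higher in libraries 4 to 6 by 6.94 (SE 0.73, edgeR adjusted p = 5.293e-08). Ldha, Pgk1, Tpi1, Gapdh and Hk2 were picked for the widest ranges of control medians between sets in these same libraries. Their p-values between sets thus follow from that choice and are no separate support. Gapdh shows the separation plainly. It had 1490, 1096 and 1636 normalised CPM in dDAVP 4 to 6 and 2005, 1459 and 1087 in control 4 to 6. Its level was 3476, 2352 and 3108 in dDAVP 7 to 9 and 4658, 4549 and 3007 in control 7 to 9. Libraries 1 to 3 had 15800, 32370 and 28730 with dDAVP and 28510, 18500 and 20950 in control. No library of a later set reaches the lowest of libraries 1 to 3, in either group. The summed epithelial markers moved with the sets as well, at 1981 to 2685 normalised CPM in dDAVP 4 to 6 and 1515 to 2261 in control 4 to 6, against 11300 to 19540 in dDAVP 1 to 3 and 11640 to 17000 in control 1 to 3, and their part in the set differences was not tested.

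This test of the sets, with treatment as a term, was added after the libraries had been seen. It called 22 of 30 members, and 23 had an unadjusted p under 0.05, where 78% of 10121 genes were called and 79.4% had such a p. A share of 22 in 30 is thus near that of all genes and is no result about the members. Their direction is given beside that of all genes. Libraries 4 to 6 against 1 to 3 had 2 members higher (34.1% of genes) and 17 lower (21.8% of genes), with a median log2 difference of -1.04 for members and 0.51 for genes. Libraries 7 to 9 against 1 to 3 had 4 members higher (39% of genes) and 14 lower (24.7% of genes), with medians of -0.83 and 0.54.

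The scaling of libraries bears on the contrast of libraries 7 to 9 with 1 to 3. Scaled by library totals alone, it had 11 members higher and 8 lower, with a median of 0.68 for members and 1.92 for genes, and 57.4% of genes higher and 7.92% lower. The contrast of libraries 4 to 6 with 1 to 3 kept 2 members higher (31.4% of genes) and 14 lower (19% of genes) on that scale. Under each of 3 scalings (TMM, relative log expression and library totals) edgeR called 14 members lower and 2 higher (Hk2 and P4ha2) in libraries 4 to 6. It called, in libraries 7 to 9, 8 lower (Tpi1, Gapdh, Pgk1, Pgam1, Ldha, Pdk1, Pfkfb3 and Bnip3l) and 3 higher (Pfkl, P4ha2 and Ddit4) under all 3. The shares of all genes called under all 3 were not computed, so these counts have no background beside them. Pkm, Pfkp, Gpi1, Eno1, Egln1, Egln3 and Bnip3 changed sign between scalings in libraries 7 to 9, as did Aldoa and Bnip3 in libraries 4 to 6.

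**Figure D3:**
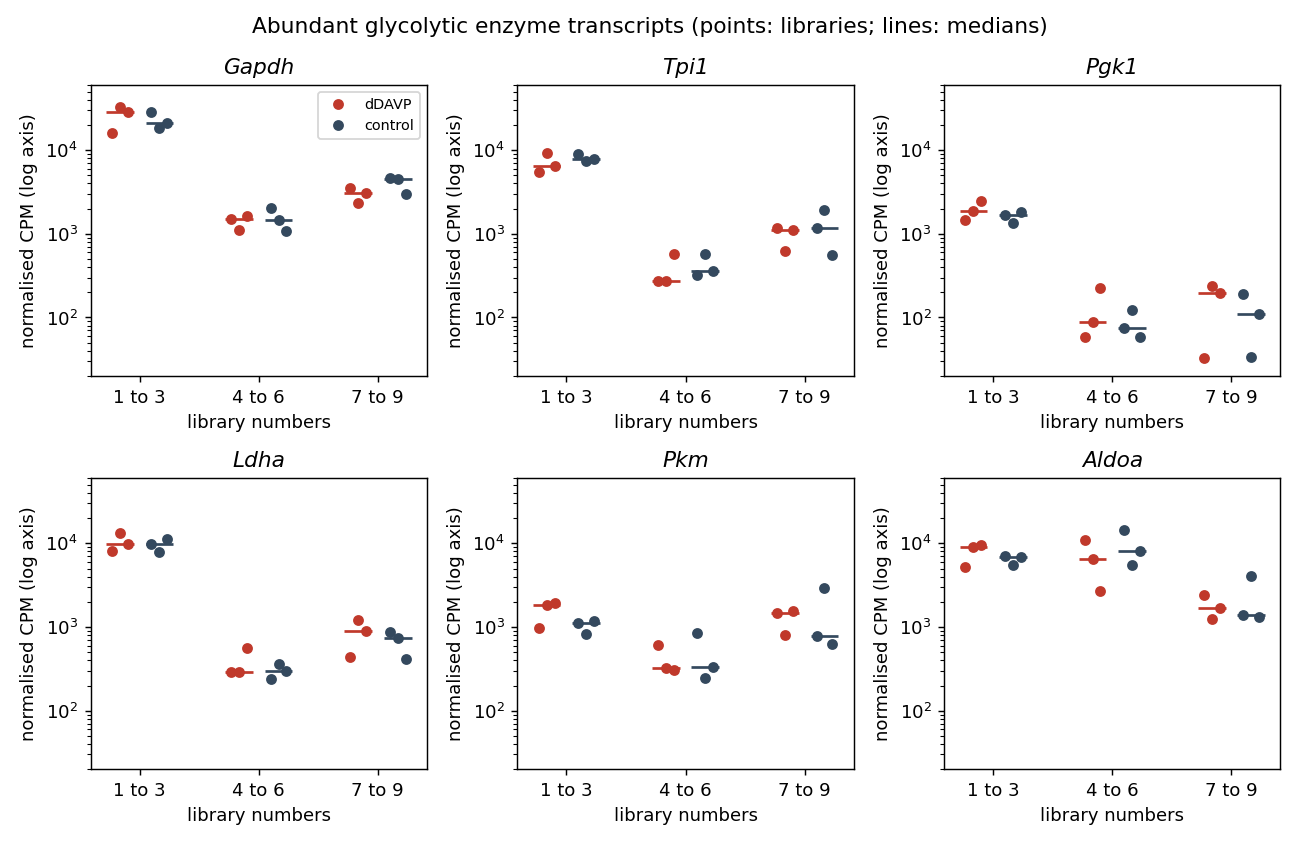
Normalised CPM (log axis) of 6 abundant enzyme transcripts in each library (points, dDAVP left of control) with the median of 3 libraries (lines), by library numbers. Gapdh, Tpi1, Pgk1 and Ldha drop between libraries 1 to 3 and the later sets in both groups, Aldoa stays high in libraries 4 to 6, and dDAVP and control points overlap within each set.

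Ratios of FPKM within a library do not depend on how libraries were scaled. Aldoa over Gapdh was 1.48 to 6.47 in dDAVP 4 to 6 and 3.35 to 6.66 in control 4 to 6. It was 0.471 to 0.616 in dDAVP 7 to 9 and 0.266 to 0.798 in control 7 to 9, and 0.249 to 0.297 in dDAVP 1 to 3 and 0.222 to 0.291 in control 1 to 3. Libraries 4 to 6 thus carried more Aldoa than Gapdh transcript, and all others less. Ldha over Pkm, the enzymes on either side of pyruvate, was 0.704 to 2.72 in dDAVP 4 to 6 and 0.418 to 2.17 in control 4 to 6. For libraries 7 to 9 it was 0.442 to 2.25 with dDAVP and 0.379 to 1.67 in control, and in libraries 1 to 3 7.46 to 12.2 with dDAVP and 12.9 to 13.9 in control. The dDAVP and control ranges of this last ratio do not overlap in libraries 1 to 3, the dDAVP values being lower, and overlap in the other sets. It was not alone in this. In libraries 1 to 3 Aldoa over Pkm was 7.92 to 8.565 with dDAVP and 9.295 to 10.58 in control. Aldoa over Tpi1 was 1.013 to 1.575 with dDAVP and 0.789 to 0.917 in control there. Both overlap in the other sets. The other ratios looked at overlap in every set, and none was tested. Gapdh over Tpi1 was steadier, at 3.33 to 6.45 over all dDAVP libraries and 2.81 to 7.33 over all control libraries. Such ratios show unequal change and not which gene moved.

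Isoenzyme shares, the part of a family's summed FPKM held by each member, repeat this in another form. Hk2 held 6.64, 23.7 and 76.3% of hexokinase transcript in dDAVP 4, 5 and 6 and 3.94 to 8.35% in control 4 to 6. In the remaining libraries it held at most 0.507% with dDAVP and 0.498% in control, so Hk1 was nearly the only hexokinase of the pair there. Only in dDAVP 6, the library that stands apart, did Hk2 exceed Hk1. Pfkp held 21.1 to 48.6% of phosphofructokinase transcript in dDAVP 4 to 6 against 11.48 to 32.1% in control 4 to 6, and 2.54 to 28.4% in dDAVP 7 to 9 against 4.75 to 19.9% in control 7 to 9. For libraries 1 to 3 it held 48.1 to 56.5% with dDAVP against 44.9 to 53.1% in control, about as much as Pfkl. The ranges of dDAVP and control overlap in all sets.

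The remaining families were less even. P4ha2 held 55.1 to 79.5% of collagen prolyl hydroxylase transcript in dDAVP 4 to 6 against 10.8 to 34.7% in control 4 to 6, ranges that do not overlap. This restates the low P4ha2 levels given above for the same libraries, and the shares were not tested. In the other sets the ranges overlap, at 64.8 to 75.7% in dDAVP 7 to 9 against 42.9 to 92.8% in control 7 to 9 and 15.0 to 42.4% in dDAVP 1 to 3 against 13.3 to 33.0% in control 1 to 3. Aldoa held at least 97.45% of aldolase transcript in every dDAVP library and at least 98.95% in every control library. Ldha held at least 99.65% of lactate dehydrogenase transcript with dDAVP and at least 99.51% in control. Egln3 had no common direction in the pair with Egln1. Its median share was 64.8% in dDAVP 1 to 3 against 57.6% in control 1 to 3, 38.3% in dDAVP 4 to 6 against 40.4% in control 4 to 6, and 50.9% in dDAVP 7 to 9 against 79.0% in control 7 to 9, with overlapping ranges in each set.

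**Figure D4:**
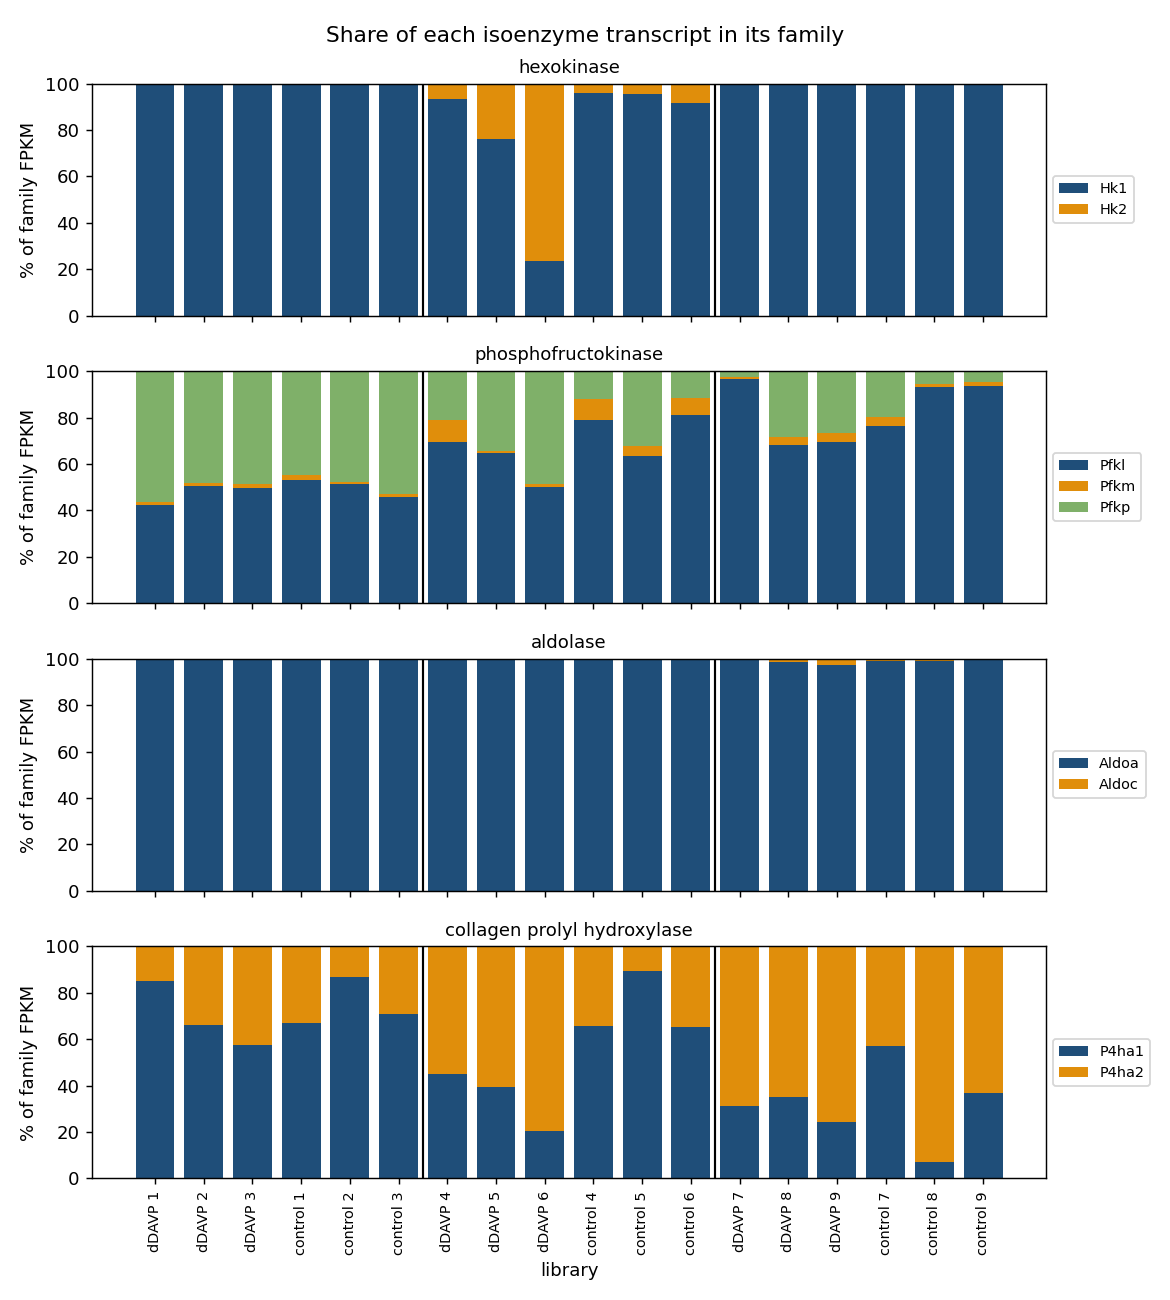
Share of each member in its family's summed FPKM (bars, %) for hexokinase, phosphofructokinase, aldolase and collagen prolyl hydroxylase in each library, dDAVP left of control within each set. Hk2 appears in libraries 4 to 6 and holds 76.3% in dDAVP 6, Pfkp is largest in libraries 1 to 3, and Aldoa holds nearly all aldolase throughout.

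Ldhb was a transcript of 2 libraries. It had 0, 460 and 462 counts in dDAVP 1, 2 and 3, against 1, 1 and 0 counts in control 1, 2 and 3. In normalised CPM this was 27.8 in dDAVP 2 and 26.1 in dDAVP 3, while no other library exceeded 0.614 with dDAVP or 1.36 in control. With 3 counts as the floor, a library of this set with 0 counts could have held up to 0.135 CPM by counting error alone. The 2 high libraries also carried transcripts of the thick ascending limb and distal tubule, nephron segments upstream of the collecting duct. The list of 4 markers (Umod, Slc12a1, Slc12a3 and Pvalb) summed to 0.0458 to 45.7 normalised CPM in dDAVP 1 to 3 against 0 to 0.0611 in control 1 to 3, and Umod alone had 34.2 in dDAVP 2 and 27.2 in dDAVP 3 with 1 count in dDAVP 1. Pvalb was at 0 in all 6 libraries. The 6 intercalated cell markers summed to 4.35 to 14.4 normalised CPM in dDAVP 1 to 3 and 1.79 to 2.43 in control 1 to 3, with Slc26a4 and Foxi1 at 0.

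The part of other cells or material in the Ldhb counts was not tested, and Ldha, at 13180 and 9701 normalised CPM in the same libraries, still made up at least 99.65% of the pair.

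**Figure D5:**
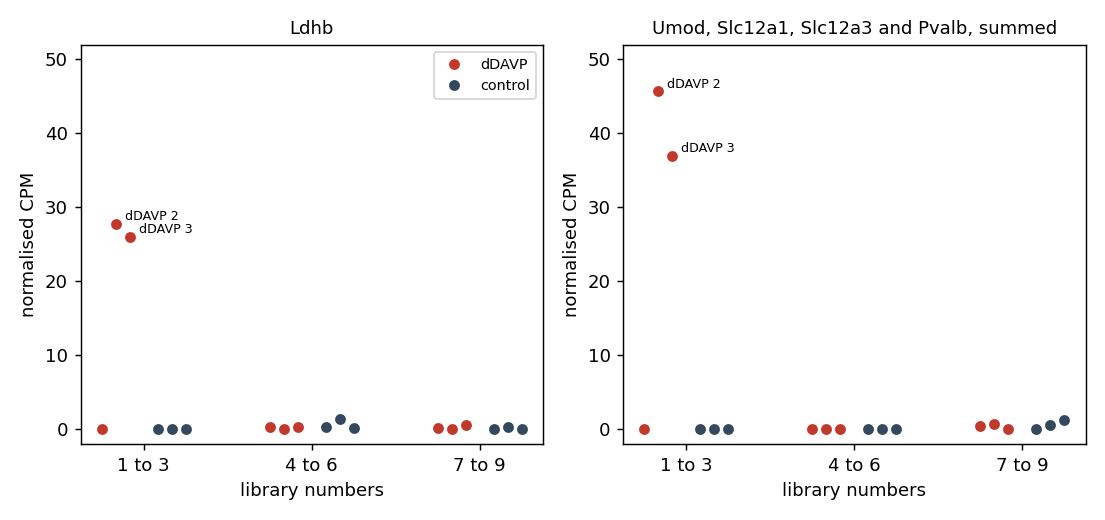
Normalised CPM of Ldhb (left) and of the summed markers Umod, Slc12a1, Slc12a3 and Pvalb (right) in each library, dDAVP left of control, by library numbers. Both are at 26.05 or more in dDAVP 2 and 3 and at 1.36 or less in all other libraries.

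Other genes of the same pathways gave no call either. Of 32 further glycolysis and pyruvate genes, 31 were in the table and 16 were tested with the set term, of which edgeR called 0, 12 being positive and 4 negative with a median log2 fold change of 0.27. Over all genes in this fit 0.079% were called, 52.2% were positive and the median was 0.02. The lowest p belonged to Slc16a1, a monocarboxylate transporter, at 0.73 (SE 0.34, edgeR adjusted p = 0.816), and Pdha1, a subunit of pyruvate dehydrogenase, at 0.62 (SE 0.35, edgeR adjusted p = 0.856). Of 40 further hypoxia response genes 24 were tested and 0 called, 9 positive and 15 negative with a median of -0.13. There Bhlhe40, a transcriptional repressor, stood at 0.95 (SE 0.38, unadjusted p = 0.0188) and Sap30, a subunit of a histone deacetylase complex, at -1.45 (SE 0.64, unadjusted p = 0.0326), with edgeR adjusted p of 0.815 each. Of 14 genes of gluconeogenesis and the pentose phosphate path 9 were tested and 0 called, 7 positive and 2 negative with a median of 0.26. G6pdx, the enzyme that opens the pentose phosphate path, stood at 0.89 (SE 0.38, unadjusted p = 0.0283, edgeR adjusted p = 0.815), and Pcx, pyruvate carboxylase, at 0.53 (SE 0.32, edgeR adjusted p = 0.856).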

How the data were processed

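RNA of 18 mpkCCD libraries (9 dDAVP, 9 control) was sequenced as 50-base single reads from 20 ng of RNA, per the labels' protocols, which describe both an ultralow-input kit and a single-cell style preparation without saying which library had which. The build was mm10; the tools listed per the submitters' processing notes are HTSeq, SAMtools and STAR (2.4.0.1), with no role given. Annotation release and strand setting are not given in the sources used here. The authors deposited whole-number counts and FPKM per gene. Symbols of the 32 genes were matched directly, and positions came from GENCODE M21 on GRCm38. Both pathway lists and members were chosen with earlier results of these data known.

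Counts were tested with edgeR 4.0.16 (TMM, filterByExpr, quasi-likelihood, two-sided) and adjusted by Benjamini-Hochberg over all genes tested, at 0.05. Normalised CPM are CPM on TMM-scaled library sizes. Members described in full had a raw p below 0.05 once sets were in the model, the highest mean FPKM of their role, or the widest control range between sets. Alternatives used DESeq2 1.42.0 and limma 3.58.1 (log2 of FPKM + 0.1), no or a stricter filter (1 CPM), other scalings, and libraries left out. The fits were run on simulated counts with large planted changes only, which cannot show their power for small changes. Scripts ran in R 4.3.3 and Python 3.11.15.

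Equal numbers were checked for pairing: deviations from group means correlated at 0.40 to 0.93 across genes, but at -0.71 to 0.43 once set means were removed. The first values still hold the differences between sets, which libraries of a set share whatever their number. The check therefore cannot show that equal numbers are pairs, and the replicate block was fitted only as an alternative. The floor of 3 counts covers counting error alone, because PCR copies were not told apart by molecular identifiers. A test between sets, and its scalings, were added after seeing the data. A result on genes that share the pattern of Ldhb is not reported here.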

Additional observations from a re-analysis of the deposited data

Results flagged for a closer look

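Among the 9 libraries of each group, 64 sets of values (32 genes, 2 groups) were searched for a library far from its nearest neighbour relative to the whole range on log2(normalised CPM + 1). By chance about 1 in 20 such sets would hold one, and 3 were found. Slc16a3 reached 1.618 normalised CPM in dDAVP 5, which is 60 counts, where the other dDAVP libraries had at most 7 counts. Pfkl reached 1725 normalised CPM in control 8, beside 1542 in dDAVP 7, where the other control libraries had at most 391. Ldhb reached 1.355 normalised CPM in control 5, or 56 counts, where the other control libraries had at most 38. The high Ldhb values of dDAVP 2 and 3 were not picked out this way, since each has the other as its neighbour.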

How the results depend on the processing

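Over 6 treatment tests and 128 alternative settings, 123 left the count of called members at 0. In libraries 1 to 3 edgeR without a filter called 1 member (Ldhb), limma voom with sample quality weights 3 (Hk1, Hif1a and Ndrg1), and leaving out 1 library gave 0 to 4, the 4 being without dDAVP 1. The test of differing effects between sets gave 1 call without a filter (Ldhb) and 1 by limma voom (Vegfa). The shares of all genes called in these settings are not given here. With the replicate number as a block, 0 members were called in each of the 5 fits that allow it. The set test kept 22 to 26 calls, and 22 to 24 with 1 library left out. Some small changes turned sign with the set term, none called: Egln3 to 0.23, Aldoa to 0.15 and Gapdh to 0.071 by limma voom, and Egln3 to 0.32 and Gapdh to 0.060 without libraries 7 to 9. With 1 library left out at a time Egln3 ran from -0.30 (without control 1) to 0.021 (without control 9). The cause was not tested. Hk2 stayed between 0.43 and 1.89 and Pfkp between 0.57 and 0.90 over their alternatives. Depth limits the scarce members: low counts kept Slc16a3, Hk2, Ldhb, Vegfa and Adm out of at least 1 fit each.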
